A study of Mus musculus with 6 samples.

Results

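The Hox genes of the 4 mammalian clusters were followed through cell fractions of the embryonic mouse liver. The members were the genes whose symbol in the array annotation is a Hox cluster letter and a paralog number and whose probe set names a single gene. This gave 35 genes, from 52 probe sets, of 20678 genes in all. A RefSeq gene table lists 39 Hox cluster genes, and Hoxa6, Hoxb8, Hoxc11 and Hoxc12 are not analysed here. RNA came from livers of wild-type C57Bl6 embryos at E12.5, in mid-gestation, and each group was read on 1 Affymetrix array of the type Mouse Genome 430 2.0. They comprised ALCAM+ PDPN+ cells, ALCAM+ PDPN- cells, ALCAM+ ITGA8+ cells, ALCAM+ ITGA8- cells, ALCAM+ cells and liver cells, called PDPN+, PDPN-, ITGA8+, ITGA8-, ALCAM+ and liver from here on. The labels give no number of embryos per array and do not say whether the sorts shared a cell suspension. ALCAM is an adhesion molecule of liver mesothelium and mesenchyme, PDPN is podoplanin, a mesothelial surface glycoprotein, and ITGA8 is the integrin alpha 8 subunit, after which the series names a hepatic stellate cell population.

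HOX proteins are homeodomain transcription factors that give cells a position along the head to tail axis. The genes lie in order in each cluster, and low paralog numbers are active further forward and earlier than high ones. They bind DNA with the TALE homeodomain proteins PBX, MEIS and PKNOX, and retinoic acid induces the low-numbered genes. Mesenchymal cells of the trunk keep a Hox code of the level they came from, and some Hox genes also act in blood progenitors. Hepatic stellate cells and mesothelium derive from mesoderm of the septum transversum.

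With no replicates there was no test, and each difference is between 2 arrays. Values are linear probe set intensities, and a gene was called above the floor at an intensity above 109, which is the median over all probe sets and arrays. The 4 fraction arrays share 1 scale, and the ALCAM+ and liver arrays lie on lower scales, with trimmed means of 329 and 195 against 996 to 997 in the fractions. Sort markers followed the labels, with Pdpn at 7746 in PDPN+ and 117 in PDPN- cells, Itga8 at 4354 in ITGA8+ and 871 in ITGA8- cells, and Alcam at 13425 in ALCAM+ and 3207 in liver cells. Probe sets differ in affinity, so an intensity was compared between arrays and not between genes. In bulk RNA, fewer cells of a type and less RNA per cell cannot be told apart.

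Promoter sequence, credited to RefSeq with build GRCm38.p6, was at hand for 20 of the 35 genes, in 22 windows that were searched over the 250 bases before the start site. A match is a description of letters and not a binding site. The 4 stretches printed show pairs that behaved differently in the sorts: Hoxa2 and Hoxb1 stayed within 2-fold between PDPN+ and both ITGA8-sorted fractions, while Hoxa5 and Hoxd8 were higher in the ITGA8-sorted ones. Capitals mark a match to TGATNNAT on either strand, the core of composite PBX-HOX sites, and bases in exons of the GENCODE M21 annotation were left out.
Hoxa2, chr6:52164832-52165081, - strand: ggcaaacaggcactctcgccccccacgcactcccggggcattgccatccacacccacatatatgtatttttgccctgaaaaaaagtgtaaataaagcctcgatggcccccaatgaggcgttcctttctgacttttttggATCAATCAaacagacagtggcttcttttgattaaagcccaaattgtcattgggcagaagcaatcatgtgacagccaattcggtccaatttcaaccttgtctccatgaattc
Hoxb1, chr11:96365508-96365751, + strand: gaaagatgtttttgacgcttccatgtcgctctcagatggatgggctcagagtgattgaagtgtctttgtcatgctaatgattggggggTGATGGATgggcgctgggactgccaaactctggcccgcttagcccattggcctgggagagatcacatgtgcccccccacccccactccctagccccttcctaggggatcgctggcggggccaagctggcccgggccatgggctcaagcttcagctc
Hoxa5, chr6:52204588-52204837, - strand: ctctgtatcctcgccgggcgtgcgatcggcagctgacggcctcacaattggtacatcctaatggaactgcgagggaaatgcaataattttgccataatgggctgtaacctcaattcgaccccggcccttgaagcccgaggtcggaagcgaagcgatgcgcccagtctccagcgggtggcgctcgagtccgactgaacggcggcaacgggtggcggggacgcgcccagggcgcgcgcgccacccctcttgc
Hoxd8, chr2:74704365-74704614, + strand: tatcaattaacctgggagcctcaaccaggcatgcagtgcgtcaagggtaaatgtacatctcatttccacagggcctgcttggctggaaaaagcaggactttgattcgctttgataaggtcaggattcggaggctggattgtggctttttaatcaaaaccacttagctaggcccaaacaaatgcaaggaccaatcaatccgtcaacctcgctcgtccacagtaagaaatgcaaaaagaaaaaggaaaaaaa
The match in the Hoxb1 window and the one in the Hoxa2 window were 2 of 3 found, in 13.6% of the Hox windows against 7.68% of 32851 windows of all genes. The other was in a window of Hoxd11, whose RNA was not above the floor. Hoxa7, Hoxb4 and Hoxc4 had no match, though PDPN+ cells were within 2-fold of both ITGA8-sorted fractions for them too. The printed pairs are examples, and a link between the match and the sorts was not tested. The letters TAATTA, a homeodomain core, were found, in 2 windows of Hoxd11, in 9.09% of Hox and 4.84% of all windows, and TTTATGG, a CDX-like core, in 4.55% of Hox windows, 1 of Hoxd4, and 2.43% of all windows. The DR5 direct repeat bound by retinoic acid receptors was in 0 of 22 Hox windows and in 0.00913% of all. The motifs were searched on both strands, and TGATNNAT and TAATTA can overlap. Median GC content was 58.6% in Hox windows and 52.4% in all windows.

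Across the fractions, 21 of 35 Hox genes were above the floor in at least 1 array, against 70.2% of all genes. Hox genes above the floor numbered 12 in PDPN+ cells (62.9% of all genes), 5 in PDPN- cells (57.4%), 19 in ITGA8+ cells (64.6%) and 21 in ITGA8- cells (64.4%). In each array the Hox share was below that of all genes, apart least in ITGA8- cells. The 5 genes above the floor in all fractions were Hoxa3, Hoxb2, Hoxb3, Hoxb4 and Hoxc4, and 53.9% of all genes were so. Another 7, among them Hoxa2, Hoxa4, Hoxa5, Hoxb1, Hoxc5 and Hoxc8, were above it in every fraction except PDPN- cells. In both ITGA8-sorted fractions and neither PDPN-sorted fraction were 7 more, Hoxb5, Hoxb6, Hoxb9, Hoxc6, Hoxd3, Hoxd8 and Hoxd9. Hoxa7 and Hoxa9 were above it in ITGA8- cells alone. Just above the floor were Hoxa9, at most 114, and Hoxa7, at most 121. Just below it was Hoxc13, at most 101, and Hoxc6 was at 109 in PDPN+ cells, which does not count as above.

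By position in the clusters, 7 of 8 genes with paralog numbers 1 to 3 exceeded the floor in a fraction, as did 11 of 13 with numbers 4 to 8 and 3 of 14 with numbers 9 to 13. The 3 were of paralog number 9, Hoxa9, Hoxb9 and Hoxd9. By cluster, 7 of 10 genes of cluster A, on chromosome 6, were above the floor, with 7 of 9 of cluster B, on chromosome 11, 4 of 7 of cluster C, on chromosome 15, and 3 of 9 of cluster D, on chromosome 2. No cluster D gene was above the floor in either PDPN-sorted fraction.

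**Figure D1:**
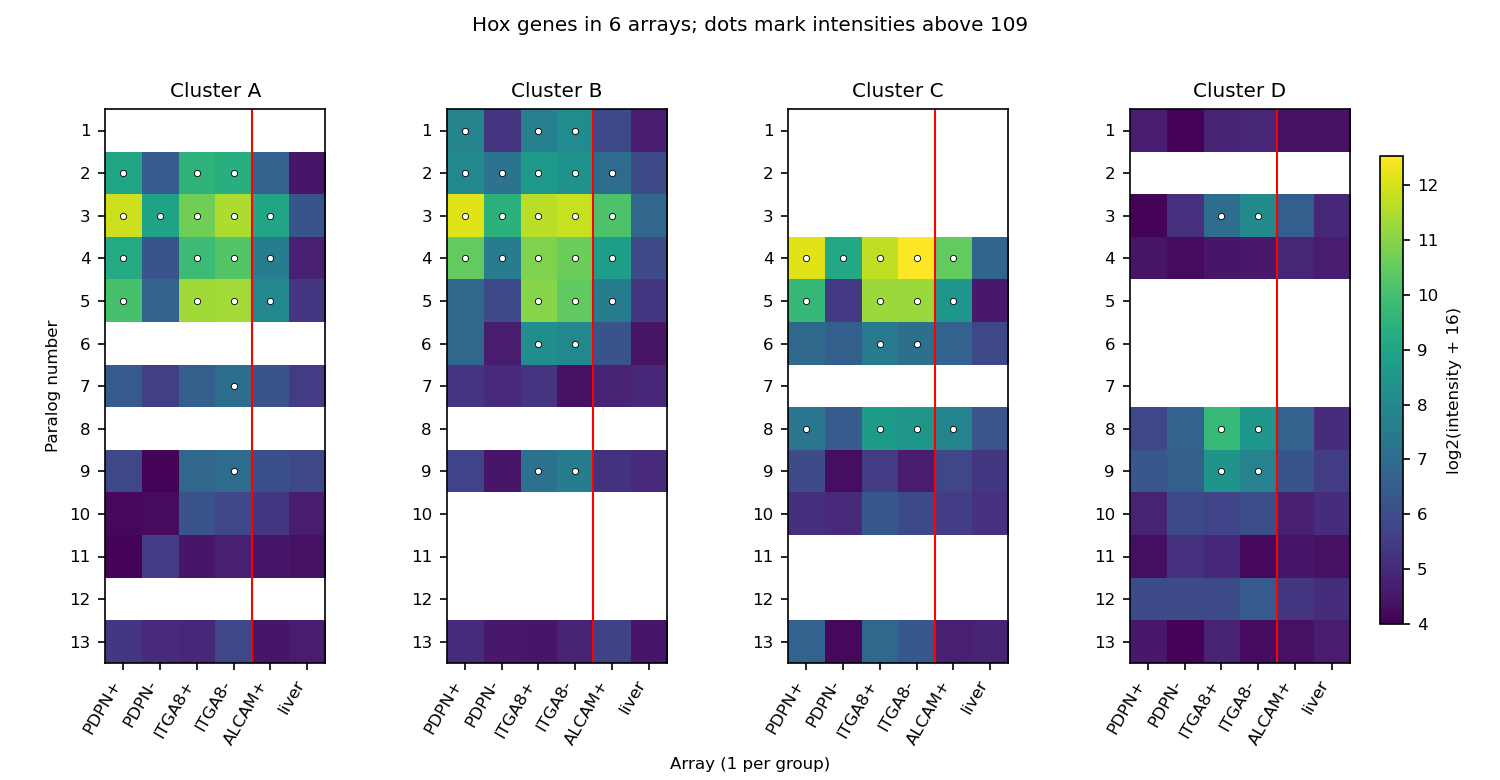
Log2(intensity + 16) of 34 Hox genes in 6 arrays, with clusters in panels, paralog numbers down the rows and white dots on intensities above 109; blank rows hold no gene shown. The red line parts the 4 fraction arrays from the ALCAM+ and liver arrays, which are on lower scales, and the signal lies at paralog numbers 1 to 9, weakest in the PDPN- and liver columns.

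Among the anterior genes, Hoxa2, a regulator of the branchial arches, was at 508 in PDPN+ and 74 in PDPN- cells, 731 in ITGA8+ and 643 in ITGA8- cells, and 86 in ALCAM+ and 7 in liver cells. Hoxb1, a hindbrain patterning gene, had 210 in PDPN+ against 23 in PDPN- cells, 193 in ITGA8+ against 263 in ITGA8- cells, and 43 in ALCAM+ against 9 in liver cells. Hoxa2 and Hoxb1 shared one pattern, with PDPN- cells alone below the floor among the fractions.

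Hoxa3, needed for thymus and parathyroid formation, was at 3798 in PDPN+ and 474 in PDPN- cells, 1620 in ITGA8+ and 2843 in ITGA8- cells, and 520 in ALCAM+ and 59 in liver cells. It was highest in PDPN+ cells, as was Hoxb3. The intensities of Hoxb3 were 4429 in PDPN+ and 707 in PDPN- cells, 3182 in ITGA8+ and 3611 in ITGA8- cells, and 1117 in ALCAM+ and 97 in liver cells. The Hoxb2 probe set of highest mean was at 240 in PDPN+ and 137 in PDPN- cells, 380 in ITGA8+ and 318 in ITGA8- cells, and 115 in ALCAM+ and 46 in liver cells. Hoxd3, which shapes the upper cervical vertebrae, was at 1 in PDPN+ and 21 in PDPN- cells, 118 in ITGA8+ and 248 in ITGA8- cells, and 80 in ALCAM+ and 16 in liver cells. Unlike its paralogs Hoxa3 and Hoxb3, Hoxd3 was below the floor in both PDPN-sorted fractions. Hoxd1 was at most 14.

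Of the paralog 4 genes, Hoxc4 was at 4412 in PDPN+ and 546 in PDPN- cells, 3367 in ITGA8+ and 5918 in ITGA8- cells, and 1405 in ALCAM+ and 93 in liver cells. Hoxb4, known to expand blood stem cells when overexpressed, was at 1406 in PDPN+ and 175 in PDPN- cells, 1881 in ITGA8+ and 1539 in ITGA8- cells, and 429 in ALCAM+ and 48 in liver cells. Hoxa4 was at 584 in PDPN+ and 58 in PDPN- cells, 914 in ITGA8+ and 1204 in ITGA8- cells, and 175 in ALCAM+ and 11 in liver cells. The 3 had PDPN- and liver cells low. PDPN+ cells were within 2-fold of both ITGA8-sorted fractions for Hoxb4 and Hoxc4, and ITGA8- cells were above PDPN+ cells by 1.02 on the log2 scale for Hoxa4. The fourth paralog, Hoxd4, was at most 8 in the fractions and 14 in ALCAM+ cells.

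The paralog 5 genes set the sorts apart. Hoxb5 was at 100 in PDPN+ and 45 in PDPN- cells, 1997 in ITGA8+ and 1395 in ITGA8- cells, and 175 in ALCAM+ and 25 in liver cells. Hoxa5, known for its role in lung and airway development, was at 1033 in PDPN+ and 90 in PDPN- cells, 2513 in ITGA8+ and 2609 in ITGA8- cells, and 240 in ALCAM+ and 25 in liver cells. Hoxc5 was at 805 in PDPN+ and 28 in PDPN- cells, 2416 in ITGA8+ and 2444 in ITGA8- cells, and 341 in ALCAM+ and 8 in liver cells. In the chosen probe sets, each of these genes was within 2-fold between ITGA8+ and ITGA8- cells and lower in both PDPN-sorted fractions. A second Hoxc5 probe set was at 134 in ITGA8+ and 284 in ITGA8- cells. A further Hoxc5 probe set was at 168 in ITGA8+ and 731 in ITGA8- cells, with 153 in PDPN+ cells.

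Of the central genes with higher paralog numbers, Hoxd8 was at 42 in PDPN+ and 87 in PDPN- cells, 827 in ITGA8+ and 359 in ITGA8- cells, and 87 in ALCAM+ and 18 in liver cells. Hoxc8, which patterns the thoracic skeleton, was at 146 in PDPN+ and 73 in PDPN- cells, 383 in ITGA8+ and 350 in ITGA8- cells, and 217 in ALCAM+ and 61 in liver cells. Hoxb6 was at 102 in PDPN+ and 9 in PDPN- cells, 278 in ITGA8+ and 240 in ITGA8- cells, and 58 in ALCAM+ and 6 in liver cells. All 3 had both ITGA8-sorted fractions above both PDPN-sorted ones. Hoxc6 was at 109 in PDPN+ and 81 in PDPN- cells, 171 in ITGA8+ and 126 in ITGA8- cells, and 88 in ALCAM+ and 42 in liver cells. For Hoxa7 the values were 69 in PDPN+ and 33 in PDPN- cells, 79 in ITGA8+ and 121 in ITGA8- cells, and 59 in ALCAM+ and 30 in liver cells. Hoxb7 was at most 24 in its own probe set. A probe set shared with Hoxb8 was at 2 in PDPN+ and 23 in PDPN- cells and at 78 in ITGA8+ and 70 in ITGA8- cells.

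Among the posterior genes, Hoxd9 was at 63 in PDPN+ and 80 in PDPN- cells, 323 in ITGA8+ and 204 in ITGA8- cells, and 59 in ALCAM+ and 31 in liver cells. Hoxb9 was at 36 in PDPN+ and 7 in PDPN- cells, 132 in ITGA8+ and 175 in ITGA8- cells, and 22 in ALCAM+ and 17 in liver cells. Among the fractions, both were above the floor in the ITGA8-sorted ones and not in the PDPN-sorted ones. Hoxa9, a regulator of blood progenitors, was at 42 in PDPN+ and 1 in PDPN- cells, 97 in ITGA8+ and 114 in ITGA8- cells, and 52 in ALCAM+ and 42 in liver cells. Scaled to the trimmed mean of the fractions, Hoxa9 was at 157 in ALCAM+ and 215 in liver cells, and Hoxd9 at 179 in ALCAM+ and 159 in liver cells. The 14 genes above the floor in no fraction included Hoxa11 and Hoxd11, of the kidney and forearm, Hoxa13 and Hoxd13, of the digits and hindgut, Hoxb13, of the tail, and Hoxc13, of hair and nails. Hoxa10, Hoxc9, Hoxc10, Hoxd10 and Hoxd12 were also among them. Their highest values in a fraction ran from 8 to 101.

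The first question was which Hox genes podoplanin separates within ALCAM+ cells. Of the 5 genes above the floor in both arrays, Hoxa3, Hoxb3, Hoxb4 and Hoxc4 were over 2-fold higher in PDPN+ cells and Hoxb2 was within 2-fold. Of the 12 members above the floor in either array, 10 were 2-fold higher in PDPN+ cells and 0 lower, where 19.9% of 13437 genes were higher and 7.93% lower. The median difference of these 12 was 2.93 on the log2 scale, against 0.04 over all genes. The 7 members whose PDPN- value was at or below the floor passed only through PDPN+ cells and had to lie that way. For the 5 above the floor in both arrays the differences, each of 1 gene, were 2.98 for Hoxc4, 2.96 for Hoxa3, 2.90 for Hoxb4, 2.62 for Hoxb3 and 0.74 for Hoxb2. In folds these were 7.88, 7.78, 7.45, 6.15 and 1.67. Hoxc5 differed 18.7-fold, with a PDPN- value of 28, so that the size depends on the 16 added before the logarithm. Hoxc8, at 0.86, was the other gene within 2-fold, and Hoxb1, at 2.53, came to 0.99 after loess scaling. Of 8 other probe sets of these genes above the floor in either array, 7 were at or below it in PDPN- cells, so that their direction was fixed by the floor. The remaining one, of Hoxa3, was at 1422 in PDPN+ and 327 in PDPN- cells, a log2 difference of 2.07. A Hoxa3 probe set below the floor was at 29 in PDPN+ and 27 in PDPN- cells. Among the 7 was a second Hoxb2 probe set, at 448 in PDPN+ and 73 in PDPN- cells, a log2 difference of 2.38. With quantile normalisation of the 2 arrays, 56.2% of all genes past 2-fold were higher in PDPN+ cells, with loess 55.8%, and as deposited 71.5%.

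Markers of several other cell types, though not of all, moved with this comparison. Mesothelial markers were 2-fold higher in PDPN+ cells in 11 of 11, with summed intensities of 57048 in PDPN+ and 1447 in PDPN- cells. Macrophage markers were higher in 8 of 8 (sums 26702 in PDPN+ and 380 in PDPN- cells) and megakaryocyte markers in 9 of 9 (32149 in PDPN+ and 308 in PDPN- cells). Neutrophil markers were higher in 7 of 7 (28024 in PDPN+ and 108 in PDPN- cells) and blood progenitor markers in 9 of 9 (7314 in PDPN+ and 891 in PDPN- cells). In PDPN- cells 1 of 8 macrophage, 0 of 9 megakaryocyte and 0 of 8 neutrophil markers were above the floor. So were 4 of 11 mesothelial and 3 of 10 blood progenitor markers. Markers that entered through PDPN+ cells alone had to lie that way. Their part in the Hox difference was not tested. Stellate markers had a sum of 20928 in PDPN+ and 26533 in PDPN- cells, with 1 of 10 higher and 2 lower. Hepatoblast markers had a sum of 119848 in PDPN+ and 138977 in PDPN- cells, with 0 of 8 higher and 2 lower. Of 8 erythroid markers 1 was higher and 0 lower.

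The second question was how Hox genes differ with the integrin. All but 1 lay within 2-fold. Of 21 members, 1 was 2-fold higher in ITGA8+ cells, Hoxd8 at 1.17 on the log2 scale, a 2.25-fold difference, and 0 were lower. Over 13872 genes 5.38% were higher and 6% lower, so these counts are near the background, and the median was -0.02 for Hox genes and 0.00 for all. The members lowest in ITGA8+ cells relative to ITGA8- cells were Hoxd3 at -0.98, Hoxc4 at -0.81 and Hoxa3 at -0.81. Toward ITGA8+ cells, after Hoxd8, were Hoxd9 at 0.62 and Hoxb5 at 0.51. The other Hoxd8 probe set was at 348 in ITGA8+ and 192 in ITGA8- cells, a difference of 0.81, so Hoxd8 misses 2-fold there. Of 10 other probe sets, from 8 genes, 8 were lower in ITGA8+ cells, 5 of them by at least 2-fold. The 5 were of Hoxa3 at -1.06, Hoxb2 at -1.17, Hoxb3 at -1.32 and Hoxc5 at -1 and -2.02. With quantile normalisation 61.6% of all genes past 2-fold were higher in ITGA8+ cells, against 47.3% as deposited.

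Stellate markers were 2-fold higher in ITGA8+ cells in 6 of 10 (sums 38109 in ITGA8+ and 19347 in ITGA8- cells), and mesothelial markers lower in 10 of 11 (16413 in ITGA8+ and 43357 in ITGA8- cells). Their part in the Hox values was not tested.

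**Figure D2:**
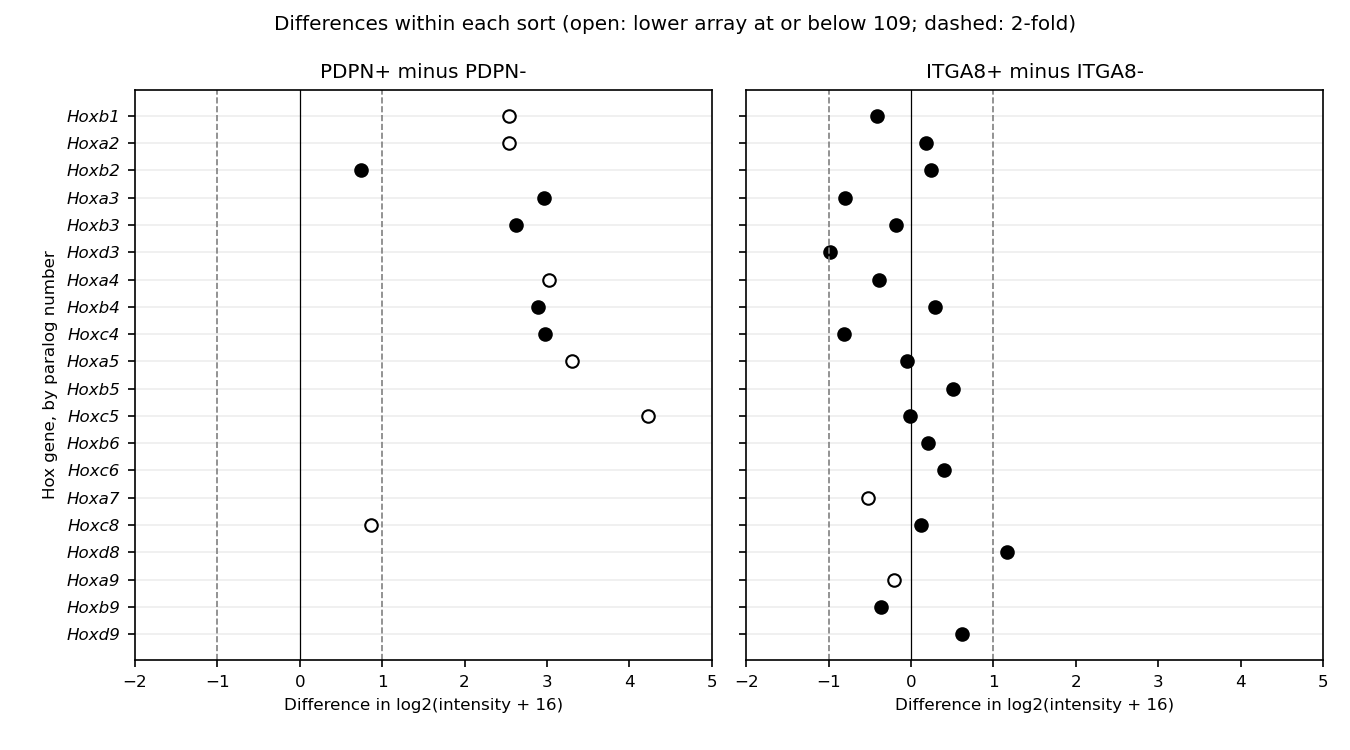
Differences in log2(intensity + 16) for Hox genes above 109 in either array, PDPN+ minus PDPN- on the left and ITGA8+ minus ITGA8- on the right, by paralog number; open circles have the lower array at or below 109 and dashed lines mark 2-fold. Of the genes plotted, 9 of 11 on the left lie past 2-fold upward, where open circles had to lie above 0, and 1 of 20 on the right does.

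PDPN+ and ITGA8+ cells come from different sorts, and setting them against each other reuses 1 array of each comparison above. Hoxa5, Hoxc5 and Hoxc8, above the floor in both, were higher in ITGA8+ cells than in PDPN+ cells, and Hoxa3 was lower. Of 19 members, 9 were 2-fold higher in ITGA8+ cells and 1 lower, against 16.3% and 14.2% of 14100 genes, with a median of 0.63 for Hox genes and 0.04 for all. Among 7 anterior genes 1 was higher (Hoxd3) and 1 lower (Hoxa3), and among 10 central genes 6 were higher, as were the 2 posterior genes above the floor, Hoxb9 and Hoxd9. Of the 9 called higher, 6 were above the floor in ITGA8+ cells alone and had to lie that way, namely Hoxb5, Hoxb6, Hoxb9, Hoxd3, Hoxd8 and Hoxd9. Hoxb5 was 17.4-fold higher in ITGA8+ cells, Hoxd8 14.5-fold, Hoxd3 7.88-fold and Hoxd9 4.29-fold. Their PDPN+ values were below the floor, so the size of each depends on the pseudocount. Where both arrays were above the floor, Hoxc5 was 2.96-fold, Hoxc8 2.46-fold and Hoxa5 2.41-fold higher. Hoxa3 was 2.33-fold lower in ITGA8+ cells, at -1.22, and its other probe sets above the floor were at -1.01 and -0.94, so that the call is lost with the median of its probe sets (-0.95). Hoxb9, at 1.51, came to 0.55 after loess scaling. Probe sets did not all give one direction: those of Hoxb2 and Hoxb4 were at 0.63 and 0.42 in the chosen and at -1.79 and -0.86 in the other ones, and Hoxc5, at 1.57, had another probe set at 0.12.

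**Figure D3:**
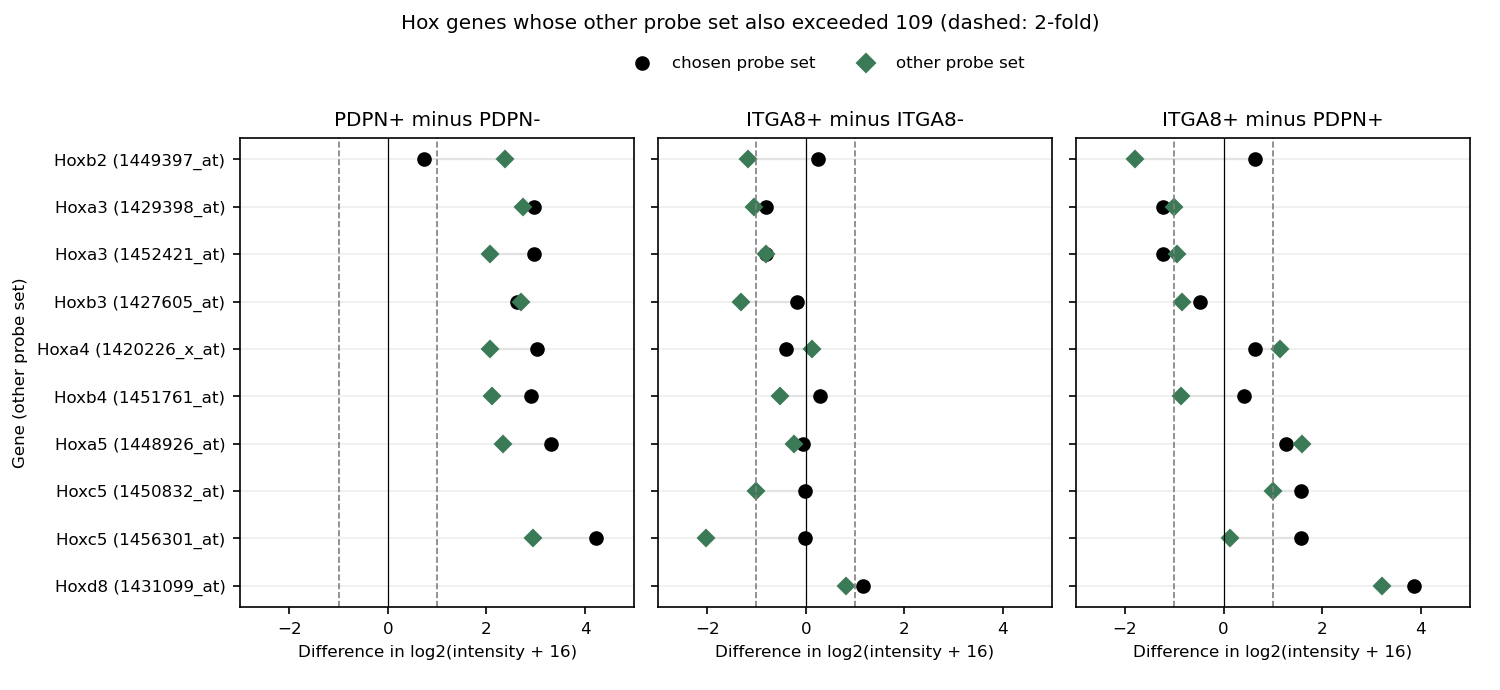
Differences in log2(intensity + 16) for 8 Hox genes with another probe set above 109, in 3 comparisons: black circles are the chosen and green diamonds the other probe set. In the PDPN panel 7 of the 8 other probe sets were above 109 in PDPN+ cells alone, which fixed their direction, and in the ITGA8 panel 5 of 10 lie past 2-fold downward.

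A comparison of the sorts was added after the values were seen. Both sorts divide ALCAM+ cells, and for 17 of 21 Hox genes both ITGA8-sorted fractions were above both PDPN-sorted fractions, against 32.2% of 14508 genes. The reverse held for 0 of 21, against 20% of all genes. The order is that of the chosen probe sets. Other probe sets of Hoxa4, Hoxa5 and Hoxd8 kept it. The other of Hoxb2 was at 448 in PDPN+ cells against 118 in ITGA8+ and 285 in ITGA8- cells. For Hoxb4 it was at 169 in PDPN+ cells against 86 in ITGA8+ and 131 in ITGA8- cells. A Hoxc5 probe set was at 153 in PDPN+ and 168 in ITGA8+ cells. Other probe sets of Hoxa9, Hoxc6 and Hoxd3 were below the floor. By at least 2-fold, 9 of 21 Hox genes lay higher in the ITGA8 sort, against 5.25% of all genes, and 0 of 21 in the PDPN sort, against 2.94% of all genes. The lower ITGA8-sorted fraction exceeded the higher PDPN-sorted one 12.2-fold for Hoxb5, 3.64-fold for Hoxd8, 3.62-fold for Hoxd3, 2.96-fold for Hoxc5 and 2.85-fold for Hoxb9. For Hoxa5 the ratio was 2.41, for Hoxd9 2.29, for Hoxc8 2.26 and for Hoxb6 2.17. With the split made after the values were seen, 8 of 11 genes with paralog numbers 5 to 9 were among these and 1 of 10 with numbers 1 to 4. The median log2 gap was 1.20 in the higher-numbered and 0.13 in the lower-numbered genes. The 7 members above the floor in both ITGA8-sorted and neither PDPN-sorted fraction had to lie that way. Of the 9 past 2-fold, Hoxb5, Hoxb6, Hoxb9, Hoxd3, Hoxd8 and Hoxd9 were among them. The direction of Hoxa5, Hoxc5 and Hoxc8 was not fixed by the floor. The counts and medians by paralog number include the fixed genes and are a description only.

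**Figure D4:**
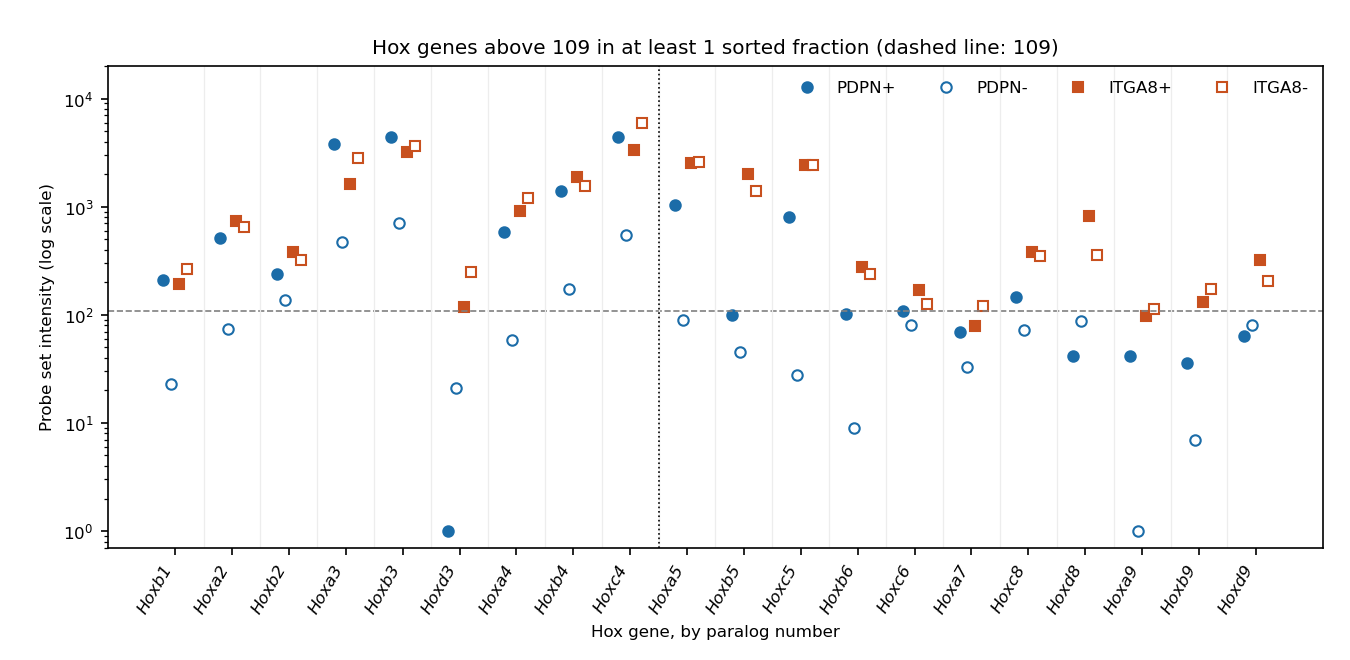
Intensity on a log axis of 20 Hox genes above 109 in a fraction, by paralog number, with blue circles for the PDPN sort and orange squares for the ITGA8 sort (filled, positive; open, negative). Left of the dotted line, at paralog numbers 1 to 4, PDPN+ values lie within 2-fold of both orange squares except for Hoxa3, Hoxa4 and Hoxd3, and right of it they lie below both.

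The unsplit ALCAM+ array was set against the fractions. Scaled to the trimmed mean of the fractions, ALCAM+ cells had Hoxb5 at 530, above both PDPN-sorted and below both ITGA8-sorted fractions. Hoxd8 was at 263 on that scale and Hoxc5 at 1033. Of the 21 genes, ALCAM+ lay within the range of all fractions for 17, against 62.9% of 14508 genes, and between PDPN+ and PDPN- for 9, against 27.4%. It lay between ITGA8+ and ITGA8- for 4, against 30.9%, and in a gap above both PDPN-sorted and below both ITGA8-sorted fractions for 6, against 8.74%. Only a gene with that gap between the sorts could lie in it, and 17 Hox genes and 4676 of all genes had one. Of these, 6 Hox genes and 1268 of all genes lay in it, so the count largely repeats the gap between the sorts.

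Other genes also differed between the sorts, with 5.25% of all genes 2-fold higher in the ITGA8 sort and 2.94% in the PDPN sort. Erythroid markers were 2-fold higher in both ITGA8-sorted fractions for 7 of 8, with sums of 50937 in ITGA8+ and 41554 in ITGA8- cells against 13647 in PDPN+ and 10622 in PDPN- cells. Blood progenitor markers were so for 4 of 9, with Myb at 10987 in ITGA8+ and 10636 in ITGA8- cells against 1073 in PDPN+ and 240 in PDPN- cells. Of the limb and tail mesenchyme markers above the floor 3 of 4 were so, namely Prrx1, Tbx4 and Tbx5. Tbx5, a forelimb and heart gene, was at 579 in ITGA8+ and 539 in ITGA8- cells against 96 in PDPN+ and 18 in PDPN- cells. Prrx1, a gene of limb and head mesenchyme, was at 1163 in ITGA8+ and 786 in ITGA8- cells against 115 in PDPN+ and 79 in PDPN- cells. The list's sums were 3851 in ITGA8+ and 3588 in ITGA8- cells against 2671 in PDPN+ and 5181 in PDPN- cells, with Tbx3 the largest term in each. Of 9 nephric and gonadal markers 4 exceeded the floor in a fraction, with Osr1 higher in the ITGA8 sort and Sall1 lower, and Lhx1, Six2, Gdnf, Nr5a1 and Pax8 were at most 83. The neural crest gene Sox10 was at 393 in ITGA8+ and 238 in ITGA8- cells against 4 in PDPN+ and 25 in PDPN- cells. The part of any of these in the Hox gap was not tested.

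The last pair asked what ALCAM sorting enriched from liver, and its differences are given after subtracting 0.90, the median over all genes. The floor was passed by 11 members, and ALCAM+ cells had 9 of them 2-fold higher and 0 lower, against 15.4% and 11.2% of 10957 genes. All 11 were above the floor in ALCAM+ cells alone, so their direction was favoured by the floor and the counts are a description only. The largest folds after the subtraction were 7.96 for Hoxc5, 6.98 for Hoxc4 and 5.37 for Hoxb3, and Hoxb2, at 1.13, and Hoxc8, at 1.62, were within 2-fold. As deposited, 45.5% of all genes were higher and 2.55% lower, that is, higher in 94.7% of those past 2-fold, against 58.1% after the subtraction. In all, 11 members exceeded the floor in ALCAM+ cells, where 51.8% of all genes did, and 0 in liver cells, where 40.5% did. The highest liver values were 97 for Hoxb3 and 93 for Hoxc4. The 0 depends on the scale of the liver array. Scaled to the trimmed mean of the fractions, 21 members exceeded the floor in ALCAM+ and 13 in liver cells, with Hoxb3 at 3383 in ALCAM+ and 496 in liver cells. The share of all genes was not counted on that scale. The median probe set, at 66 in ALCAM+ and 42 in liver cells as deposited, also exceeds the floor there. These scaled counts are therefore a description only. Erythroid markers were lower in ALCAM+ cells in 8 of 8 (deposited sums 15141 in ALCAM+ and 36494 in liver cells), and mesothelial markers higher in 9 of 9 (12763 in ALCAM+ and 531 in liver cells). Their part was not tested.

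Genes that work with HOX proteins were described from lists. Of 8 cofactor genes, 3 were 2-fold higher in PDPN+ than in PDPN- cells, among them Pbx4 at 1.58 and Meis2 at 1.32, and 0 were lower, against 19.9% and 7.93% of all genes. The cofactor median was 0.36, against 0.04 over all genes. In ITGA8+ against ITGA8- cells 0 were higher and 2 lower, Pknox1 at -1.60 and Pbx4 at -1.23, against 5.38% and 6% of all genes. In ITGA8+ against PDPN+ cells 4 were higher and 3 lower, against 16.3% and 14.2% of all genes, with Meis1 at 1.92. Meis1, a HOX partner in blood progenitors, was at 719 in PDPN+ and 585 in PDPN- cells, 2761 in ITGA8+ and 2273 in ITGA8- cells, and 427 in ALCAM+ and 74 in liver cells. It was the cofactor that lay 2-fold higher in both ITGA8-sorted fractions, 3.11-fold. Meis1 and Meis2 were the cofactors higher in ALCAM+ than in liver cells, at 1.40 and 2.50.

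Of 22 Polycomb, Trithorax and related chromatin genes 21 exceeded the floor in the PDPN comparison. Of these 1 was higher in PDPN+ cells, Phc1, and 0 lower, against 19.9% and 7.93% of all genes. In the ITGA8 comparison 0 of 21 were higher and 0 lower, against 5.38% and 6% of all genes. Upstream genes of the retinoic acid and CDX pathways were 2-fold higher in PDPN+ than in PDPN- cells in 6 of the 9 above the floor, against 19.9% of all genes. Aldh1a2, which makes retinoic acid, was at 2082 in PDPN+ and 42 in PDPN- cells, 2509 in ITGA8+ and 2363 in ITGA8- cells, and 977 in ALCAM+ and 25 in liver cells. Its fractions ran like those of Hoxa2, with PDPN- cells alone below the floor. Cyp26a1, which degrades retinoic acid, was at 13 in PDPN+ and 19 in PDPN- cells and at 146 in ITGA8+ and 169 in ITGA8- cells, the split of Hoxb5. Cdx1, Cdx2 and Cdx4, which activate central Hox genes in the tail bud, were at most 41 in the fractions.

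Genes that flank the clusters were described too. Of 9 above the floor, 2 were higher in PDPN+ than in PDPN- cells, Skap2 and Calcoco1, which is near the 19.9% of all genes. Between the sorts 0 of 9 lay 2-fold apart, where 5.25% of all genes were higher in the ITGA8 sort and 2.94% in the PDPN sort. Evx1 and Evx2, homeobox genes next to the posterior ends of clusters A and D, were at most 89 in the fractions. Of 19 homeobox genes outside the clusters, 7 lay 2-fold higher in both ITGA8-sorted fractions, against 5.25% of all genes. Another 2, Hhex and Onecut1 of the hepatic endoderm, lay 2-fold higher in both PDPN-sorted fractions, against 2.94%. Six4 was at 20 in PDPN+ and 48 in PDPN- cells and at 837 in ITGA8+ and 902 in ITGA8- cells. Alx1, Meox1, Prrx1 and Prrx2 also lay higher in the ITGA8 sort. Prrx1 is also on the limb and tail mesenchyme list.

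**Figure D5:**
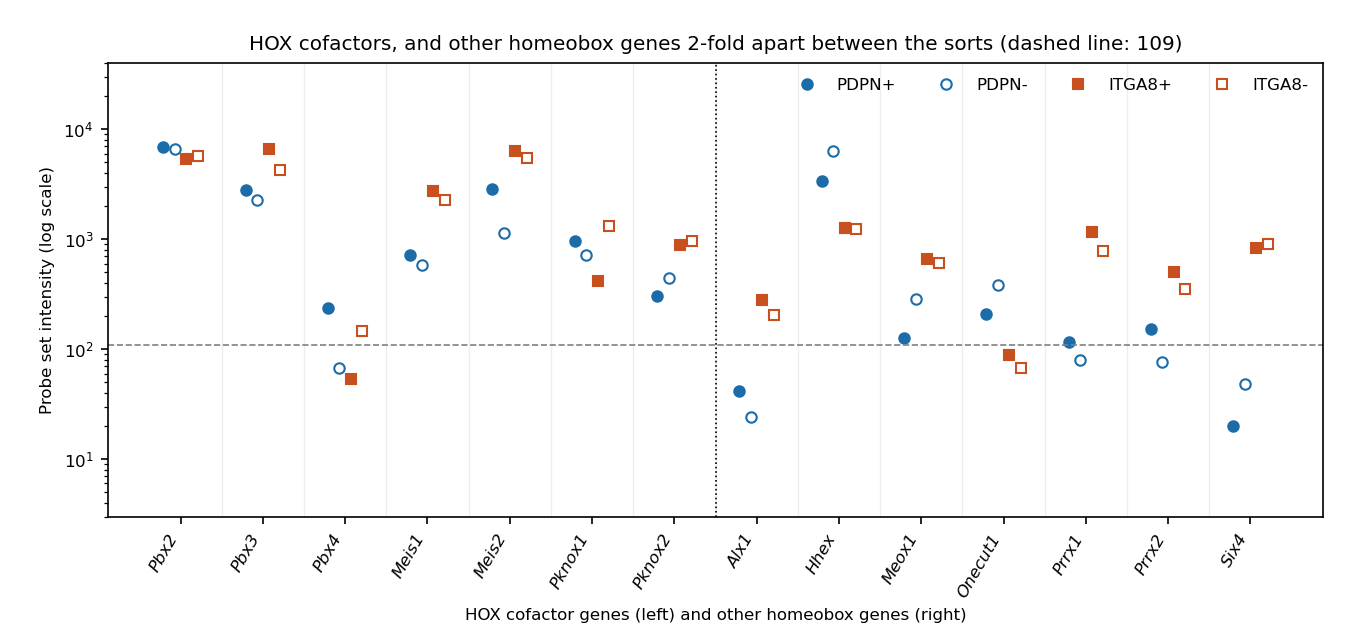
Intensity on a log axis in the 4 fractions of 7 HOX cofactor genes (left of the dotted line) and of 7 homeobox genes outside the clusters that lay 2-fold apart between the sorts (right); blue circles are the PDPN and orange squares the ITGA8 sort, filled for positive and open for negative fractions. Meis1 and Six4 have both orange squares above both blue circles, and Hhex and Onecut1 the reverse.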

How the data were processed

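Gene expression was measured in 6 samples, 1 Affymetrix array each, from E12.5 mouse liver. Labelled probes were made from 20 ng of RNA with biotin, per the labels' protocols. The deposited intensity values are linear and in whole numbers. RMA and Partek are named per the submitters' processing notes, versions and genome build not given in the sources used here. Arrays lie on different scales, as the report states. Groups come from the source labels.

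Of 45101 probe sets, 64 controls, 5746 without a gene and 1280 naming several genes were left out. A gene with several probe sets was read by that of highest mean in the fractions. Values became log2(intensity + 16), and a gene entered a comparison when its higher array exceeded 109. Folds on this scale understate differences of low genes. With 1 array per group nothing was tested, and the number of arrays limits the precision. Genes were counted at 2-fold. The sort comparison, the trimmed-mean scaling and the paralog split were chosen after seeing the data. The counting was tested on simulated 4-fold changes in genes well above the floor. Calls near the floor or near 2-fold were not covered by it. Python 3.11.15, pandas 2.3.3 and statsmodels 0.14.6 (loess) were used. Alternatives covered the floor, pseudocount, probe set, scaling and threshold. A few genes enter the counts and are not reported here by name or in figures. Other members above the floor in a fraction are named with their values, and other genes were named from lists when past 2-fold (at most 3 each way per list and comparison) or, chosen after their values were seen, for the sort comparison. Members and lists were chosen with earlier results of these data known. Hox paralogs resemble each other and may share probes.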

Additional observations from a re-analysis of the deposited data

How the results depend on the processing

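No paired analysis was possible because each group has 1 array, and no replicate could be left out. With a floor of 50, Hox genes above it numbered 12 in PDPN-, 19 in ALCAM+ and 4 in liver cells, and with 200 they numbered 3 in PDPN- and 7 in ALCAM+ cells. Liver had 6 with the own median of each array as floor and 6 with quantile normalisation. Scaled to the fractions, an alternative chosen after seeing the data, ALCAM+ had 21 and liver 13, with no share of all genes counted beside them. The 10 Hox genes higher in PDPN+ than in PDPN- cells became 9 to 15, and 3 were lower without a floor. Between ITGA8+ and ITGA8- cells, Hox genes higher fell to 0 with specific probe sets and at 4-fold, and 1 was lower with a pseudocount of 1 or with the median probe set. In ALCAM+ minus liver 5 were higher with a pseudocount of 64, 14 without a floor and 3 at 4-fold. In ITGA8+ minus PDPN+ 4 were higher at 4-fold, and 0 were lower at 4-fold, with specific or with median probe sets. The 9 higher in both ITGA8-sorted fractions became 5 with a pseudocount of 64 and 1 at 4-fold. The causes were not tested. Members called in a comparison kept their sign under each alternative run, with 307 values still past 2-fold and 16 within it, 4-fold threshold aside.

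Over all genes, counts moved by more than 1.5 times at 4-fold in every comparison, without a floor and, for ALCAM+ minus liver, as deposited. In PDPN+ minus PDPN-, 2674 higher and 1066 lower became 1224 and 109 at 4-fold, and 1691 were lower without a floor. In ITGA8+ minus ITGA8-, 747 and 832 became 49 and 65, and 1316 were higher without a floor. In ALCAM+ minus liver, 1692 and 1222 became 389 and 245, 4987 and 279 as deposited, and 3211 were higher without a floor. In ITGA8+ minus PDPN+, 2294 and 2003 became 583 and 489, and 4010 were higher without a floor.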
